A study of Mus musculus with 2 samples.

Results

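Nanos2-positive spermatogonia were taken here as the germ cells in which at least 1 Nanos2 transcript was counted. A germ cell was a cell with at least 1000 UMIs (unique molecular identifiers, each standing for 1 captured transcript) whose summed UMIs of Ddx4, Dazl, Mael, Dnd1 and Zbtb16 exceeded those of the fibroblast genes Col1a1, Col1a2, Col3a1, Fn1 and Sparc. By this rule 386 of 1490 germ cells were Nanos2-positive, out of 1676 complete cells in all. There were 183 positive and 577 negative germ cells in the Chd4 siRNA library, and 203 positive and 527 negative germ cells in the control siRNA library. The cells were thus selected on their measured Nanos2 count, so the Nanos2 level is given as a description only and was left out of every ranking.

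The cells were C57BL/6 mouse undifferentiated spermatogonia, obtained from adult testes by magnetic selection for THY1 and kept in serum-free medium with GDNF and bFGF on mitomycin-treated SNL76/7 embryonic fibroblasts. One group received Chd4 siRNA and the other a non-targeted control siRNA, both with Lipofectamine on plastic for 24 h after removal from the feeder layer. Each group is 1 droplet library of 3 pooled biological replicates, so no value has a replicate check and no p-value is given. The cultures are a model of the undifferentiated pool without the supporting cells of the testis, and the replicate of origin of a cell was not known.

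NANOS2 is an RNA-binding zinc finger protein of male germ cells. It binds the CCR4-NOT deadenylase and brings selected transcripts to degradation or translational repression, and in the mouse testis it acts downstream of GDNF to keep spermatogonial stem cells undifferentiated. In fetal male germ cells it holds back entry into meiosis, and in spermatogonia it has been placed upstream of reduced mTORC1 signalling. CHD4, the target of the siRNA, is the ATPase of the nucleosome remodelling and deacetylase complex NuRD.

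The promoters of Nanos2 and of 3 genes among those ranked lowest in the positive cells are shown first, because the motif in capitals recurs among the lowest genes described further on. Capitals mark the E-box CACGTG, a palindrome that reads the same on both strands and is bound by basic helix-loop-helix factors. Each sequence is the 250 bases before a start listed for the gene in the RefSeq table on GRCm38.p6, 5′ to 3′ along the gene's strand. They lie at chr7:18987274-18987523 (plus strand) for Nanos2, chr11:119267713-119267962 (plus) for Gaa, chr7:126583237-126583486 (minus) for Cln3 and chr5:135350045-135350294 (minus) for Fkbp6. Cln3 and Fkbp6 each had 2 promoters in the table, and the 1 shown was taken because it holds an E-box. The Cln3 sequence lies inside the gene as placed in GENCODE M21 (chromosome 7, 126571207 to 126585817, minus strand). In the same annotation Nanos2 starts at 18987400 and Gaa at 119267887, so the last part of each of these sequences also lies inside the gene.
Nanos2: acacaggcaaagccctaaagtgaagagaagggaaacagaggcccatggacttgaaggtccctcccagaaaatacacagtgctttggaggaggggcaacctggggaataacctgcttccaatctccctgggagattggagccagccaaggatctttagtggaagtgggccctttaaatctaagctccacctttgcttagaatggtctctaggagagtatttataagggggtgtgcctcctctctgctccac
Gaa: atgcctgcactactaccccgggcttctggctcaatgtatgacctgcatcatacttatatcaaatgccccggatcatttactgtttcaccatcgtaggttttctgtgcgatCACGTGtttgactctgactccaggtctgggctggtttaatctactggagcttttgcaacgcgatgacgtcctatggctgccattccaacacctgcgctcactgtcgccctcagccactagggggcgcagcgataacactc
Cln3: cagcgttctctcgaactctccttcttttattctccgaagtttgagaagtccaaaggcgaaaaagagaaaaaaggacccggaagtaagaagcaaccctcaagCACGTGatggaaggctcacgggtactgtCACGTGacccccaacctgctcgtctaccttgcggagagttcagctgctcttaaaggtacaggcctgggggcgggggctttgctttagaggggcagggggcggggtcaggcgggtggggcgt
Fkbp6: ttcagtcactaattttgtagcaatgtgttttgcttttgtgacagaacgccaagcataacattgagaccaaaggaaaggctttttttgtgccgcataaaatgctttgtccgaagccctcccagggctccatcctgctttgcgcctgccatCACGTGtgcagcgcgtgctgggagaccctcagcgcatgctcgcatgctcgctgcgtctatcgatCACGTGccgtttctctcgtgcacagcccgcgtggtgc
The Nanos2 promoter held no E-box in these letters, Gaa held 1, and Cln3 and Fkbp6 held 2 each. Over the window from 250 bases before to 50 bases after the start, an E-box was present in 5 of the 14 matched genes among the 15 lowest (Gaa, Cln3, Fkbp6, Insig1 and Wdsub1) and in 0 of the 14 matched genes among the 15 highest. The share was 13.2% of the 7612 tested genes with a listed promoter and 7.15% of all 32851 promoters. Among all genes called lower it was 16.0% (31 of 194), against 8.51% (8 of 94) of those called higher, so the wider group of lower genes stood near the tested genes as a whole. The GC box GGGCGG, searched on both strands, was present in 6 of the 14 lowest and 9 of the 14 highest, against 72.1% of the tested genes. Both motifs were chosen with the gene values known.

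Most positive cells were so called on a single Nanos2 transcript. Nanos2 (ENSMUSG00000051965, chromosome 7, 18987400 to 18988962, plus strand in GENCODE M21) gave 265 UMIs in the positive cells of the Chd4 siRNA library and 299 in those of the control library, or 80.3 and 86.3 CPM (UMIs of the gene per 1000000 UMIs of named genes). Its log2 ratio, Chd4 siRNA over control, was −0.11 with a 95% counting interval of −0.35 to 0.14. The cells were selected on these same UMIs and each holds at least 1. The ratio and its interval therefore do not measure an effect of the siRNA on Nanos2. In the Chd4 siRNA library 127 positive cells held exactly 1 Nanos2 UMI, just inside the rule, 40 held 2, 16 held 3 or more and the highest held 6. In the control library 152 held 1, 34 held 2, 17 held 3 or more and 1 cell held 17. The positive cells were deeper than the negative cells, with a median of 17122 against 14944 UMIs in the Chd4 siRNA library and 16344 against 14874 in the control library.

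**Figure D1:**
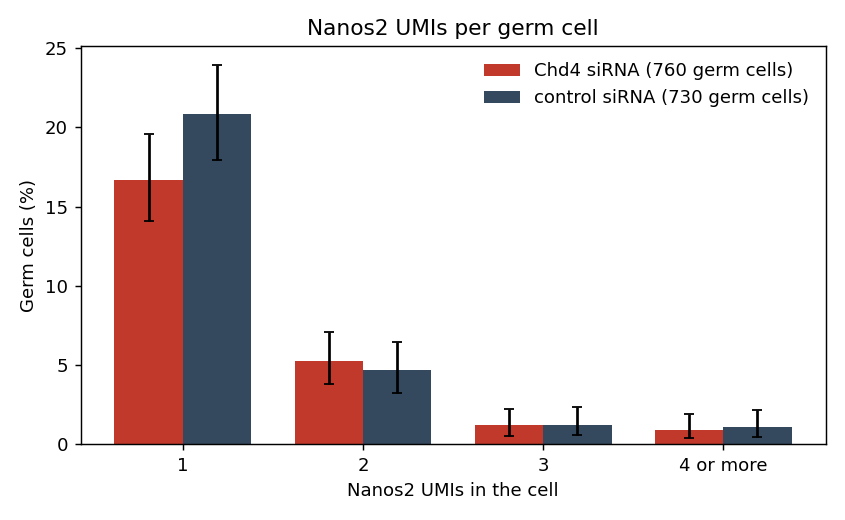
Share of germ cells (%, vertical axis, from 0) by the number of Nanos2 UMIs in the cell (horizontal axis), for the Chd4 siRNA library (left bars, red) and the control siRNA library (right bars, blue-grey), with exact 95% binomial intervals. Most positive cells held 1 UMI, 127 of 183 under Chd4 siRNA and 152 of 203 under control siRNA.

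The share of germ cells with a Nanos2 UMI was 24.1% (183 of 760, exact 95% binomial interval 21.1 to 27.3%) under Chd4 siRNA and 27.8% (203 of 730, 24.6 to 31.2%) under control siRNA. The difference was −3.73 percentage points, with an interval of −8.17 to 0.72 that includes 0. With each cell thinned to 9000 UMIs the shares were 16.0% (111 of 695) and 17.3% (115 of 665), a difference of −1.32 points (−5.30 to 2.64). The thinning left out 10 positive and 55 negative cells under Chd4 siRNA, and 11 positive and 54 negative cells under control siRNA. The share depended on depth within each library: across 4 equal groups of germ cells by depth, low to high, it was 15.3, 17.4, 30.0 and 33.7% under Chd4 siRNA and 19.7, 23.1, 30.8 and 37.7% under control siRNA. A negative cell can therefore not be taken as one without Nanos2 transcripts. Cells that were not germ cells by the rule give the background of the same count: 5 of 98 held a Nanos2 UMI in the Chd4 siRNA library and 1 of 86 in the control library, at median depths of 38178 and 37587.5 UMIs, and after thinning the shares were 3.45% (3 of 87) and 1.30% (1 of 77).

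The libraries shared 1 barcode among those at hand, which covered 799 of the 861 cells of the Chd4 siRNA matrix and all 817 cells of the control matrix, and the cells carrying it were Nanos2-positive germ cells in both. All counts below are given with it; without it, 115 genes in place of 116 were called higher and 269 in place of 258 were called lower in the positive cells. Scrublet called 2 of 183 and 3 of 203 positive cells doublets under Chd4 and control siRNA, against 4 of 577 and 5 of 527 negative cells. The median share of UMIs in rows without a gene name was 12.3% and 12.2% in positive cells, against 13.1% and 12.5% in negative cells. Cells with over 20% of UMIs in such rows were less common among positive cells. They were 2 of 183 positive and 18 of 577 negative cells under Chd4 siRNA, and 1 of 203 and 6 of 527 under control siRNA. Fibroblast markers summed to 236 CPM in positive against 247 CPM in negative cells under Chd4 siRNA, and to 261 against 270 CPM under control siRNA, while cells outside the germ class had 12419 and 11137 CPM. The sum includes the fibroblast genes of the germ cell rule. The contrast with cells outside the germ class is therefore partly set by the rule.

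The genes proposed as companions of Nanos2 in these cells had similar levels in both classes. En1, a homeobox gene, had 71.5 CPM in positive against 67.1 CPM in negative cells under Chd4 siRNA and 88.4 against 90.6 CPM under control siRNA. Its log2 ratio, positive over negative, was 0.09 (−0.13 to 0.31) in the Chd4 siRNA library and −0.04 (−0.23 to 0.16) in the control library. Ppfibp2, which encodes a liprin, had log2 ratios of 0.20 (−0.01 to 0.40) and 0.09 (−0.11 to 0.29). Tox3, an HMG-box gene, had 0.04 (−0.52 to 0.58) and −0.07 (−0.57 to 0.41), and Ctcflos, an antisense transcript of the Ctcfl locus, had 0.11 (−0.46 to 0.65) and −0.05 (−0.54 to 0.42). All 4 had intervals that include 0 in both libraries. Tox3 and Ctcflos had only 40 to 53 UMIs per library in the positive cells, so moderate differences were not detectable at this depth, and Ctcflos reads cannot be told apart from those of an overlapping gene where counting ignored strand. After thinning, En1 was detected in 34.1% of positive and 33.0% of negative germ cells, against 0 of 87 cells outside the germ class (which allows a share of up to 3.45%), in the Chd4 siRNA library, and in 41.1%, 41.4% and 2.60% of those classes in the control library. The cells are therefore named by their rule, presence of a Nanos2 UMI, and not by these markers.

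Across genes the positive and negative germ cells were close to each other. A gene was tested if it had at least 100 UMIs in germ cells of both libraries together, which 9826 genes did, and it was called when its ratio passed 0.32 on the log2 scale in the same direction in each library. In the positive cells 116 genes, 1.18% of those tested, were called higher and 258 genes, 2.63%, were called lower. In 1 library alone 5.71% (Chd4 siRNA) and 7.22% (control) of the genes passed upwards, and 12.9% and 10.3% passed downwards. Within 0.32 of 0 lay 81.4% of the genes in the Chd4 siRNA library and 82.5% in the control library, with median log2 ratios of −0.04 and −0.02. With TMM or DESeq2 scaling the split moved to 163 higher and 213 lower, so the excess of lower calls depends in part on the scaling. Many calls were not repeated at lower depth: with cells thinned to 9000 UMIs and the classes kept, 33 of the 116 higher and 67 of the 258 lower genes were called again, out of 141 and 282 calls among 8366 genes tested. All log2 ratios of this comparison are positive over negative, and all intervals cover counting error only.

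**Figure D2:**
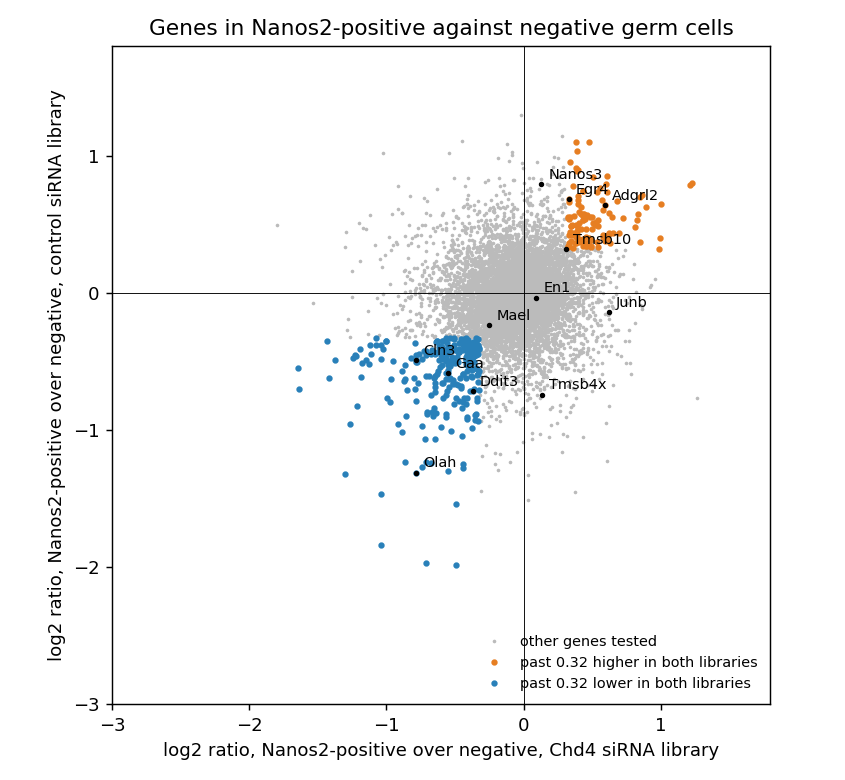
Each point is 1 of the 9826 tested genes, placed by its log2 ratio of summed CPM, Nanos2-positive over negative germ cells, in the Chd4 siRNA library (horizontal axis) and in the control siRNA library (vertical axis). Orange and blue points were past 0.32 (116 genes) and past −0.32 (258 genes) in both libraries; black points are genes named in the text.

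The genes furthest above 0, ranked by the interval bound nearest to 0 in the library where it was weaker, included cytoskeletal, transcription factor and proteasome genes, and 8 of these 15 passed the fold of the call. Tmsb10, which encodes an actin monomer-binding thymosin, had 2128 CPM in positive against 1716 CPM in negative cells under Chd4 siRNA and 2792 against 2242 CPM under control siRNA. Its log2 ratios were 0.31 (0.27 to 0.35) and 0.32 (0.28 to 0.35), just short of the fold of the call in each library, and it was detected in all 183 and all 203 positive cells. Its level differed more between the libraries than between positive and negative cells.

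Among transcription factors, Egr4, a zinc finger gene of the early growth response family, had 106.9 CPM in positive against 85.1 CPM in negative cells under Chd4 siRNA and 121 against 75.5 CPM under control siRNA, log2 ratios of 0.33 (0.14 to 0.51) and 0.68 (0.50 to 0.87). Thinned to equal depth, Egr4 was detected in 50.3% of positive and 43.9% of negative cells in the Chd4 siRNA library and in 55.7% and 40.0% in the control library, with differences of 6.42 points (−2.11 to 14.9) and 15.8 points (7.40 to 23.9). Mypop, a Myb-related factor, had 117 against 84.0 CPM and 107 against 80.6 CPM. The forkhead repressor gene Foxn3 had log2 ratios of 0.42 and 0.47, and Sp5, a zinc finger gene known as a target of Wnt signalling, had 0.50 and 0.55 on only 93 and 76 UMIs in positive cells.

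At the cell surface, Adgrl2, an adhesion G protein-coupled receptor gene, had log2 ratios of 0.59 (0.21 to 0.97) under Chd4 siRNA and 0.64 (0.27 to 1.0) under control siRNA. In the Chd4 siRNA library 1 cell held 15.6% of its UMIs in positive cells. Cmtm8, which encodes a membrane protein of the MARVEL family, had 60.9 against 40.2 CPM and 58.9 against 44.2 CPM. The remaining genes of the 15 were Psme2, a subunit of the proteasome activator PA28 (0.25 in each library), Ppdpf (0.29 and 0.34), Nup62cl (0.44 and 0.57), Limd2 (0.32 and 0.33), Uqcr11 of respiratory complex III (0.21 and 0.19), the ribosomal protein genes Rps2 (0.18 and 0.14) and Rpl41 (0.15 and 0.14), and Gm9844 (0.57 and 0.30). Counts of Rps2, Rpl41 and Gm9844 may be shared with near-identical copies and are uncertain.

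The genes furthest below 0 were led by lysosomal, lipid, stress and germline genes, and 12 of these 15 passed the fold of the call (all but Vps8, Fkbp6 and Smc1b). Gaa (chromosome 11, 119267887 to 119285454), which encodes the lysosomal acid alpha-glucosidase, had 49.97 CPM in positive against 73.1 CPM in negative cells under Chd4 siRNA and 44.8 against 67.1 CPM under control siRNA. Its log2 ratios were −0.55 (−0.80 to −0.30) and −0.58 (−0.85 to −0.32). Cln3, which encodes a lysosomal membrane protein, had 46.9 against 80.6 CPM and 51.4 against 72.2 CPM, log2 ratios of −0.78 (−1.04 to −0.53) and −0.49 (−0.74 to −0.25). Atp6ap2, an accessory subunit of the vacuolar proton pump, had −0.41 and −0.50, and Vps8, of an endosomal tethering complex, had −0.27 and −0.42. In each of these 4 genes the positive cells were the lower class in both libraries, which follows from the way they were ranked.

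In lipid metabolism, Insig1, the endoplasmic reticulum protein that holds back sterol synthesis when sterol is plentiful, had 178 against 240.3 CPM and 172 against 219 CPM, log2 ratios of −0.43 (−0.56 to −0.30) and −0.35 (−0.49 to −0.22). Olah, a thioesterase of fatty acid synthesis, had −0.79 and −1.31 on 32 and 19 UMIs in positive cells. Of the stress genes, Ddit3, which encodes the factor CHOP of the integrated stress response, had 85.4 against 110.4 CPM and 60.1 against 98.8 CPM, log2 ratios of −0.37 (−0.57 to −0.18) and −0.72 (−0.94 to −0.50). Cars, the cysteinyl-tRNA synthetase gene, had −0.59 and −0.42.

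Of germline genes, Fkbp6, needed for the piRNA pathway of transposon silencing, had 425 against 518 CPM and 394 against 478 CPM (−0.29 and −0.28), and Smc1b, a subunit of meiotic cohesin, had 226 against 277 CPM and 215 against 278 CPM (−0.30 and −0.37). The others were the cytokine gene Ltb (−0.86 and −1.23), Wdsub1 (−0.49 in each), Fam221a (−0.67 and −0.42), Mfsd11 (−0.53 and −0.50) and Zfp949 (−1.27 and −0.96). Ltb and Zfp949 had at most 23 UMIs per library in the positive cells.

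**Figure D3:**
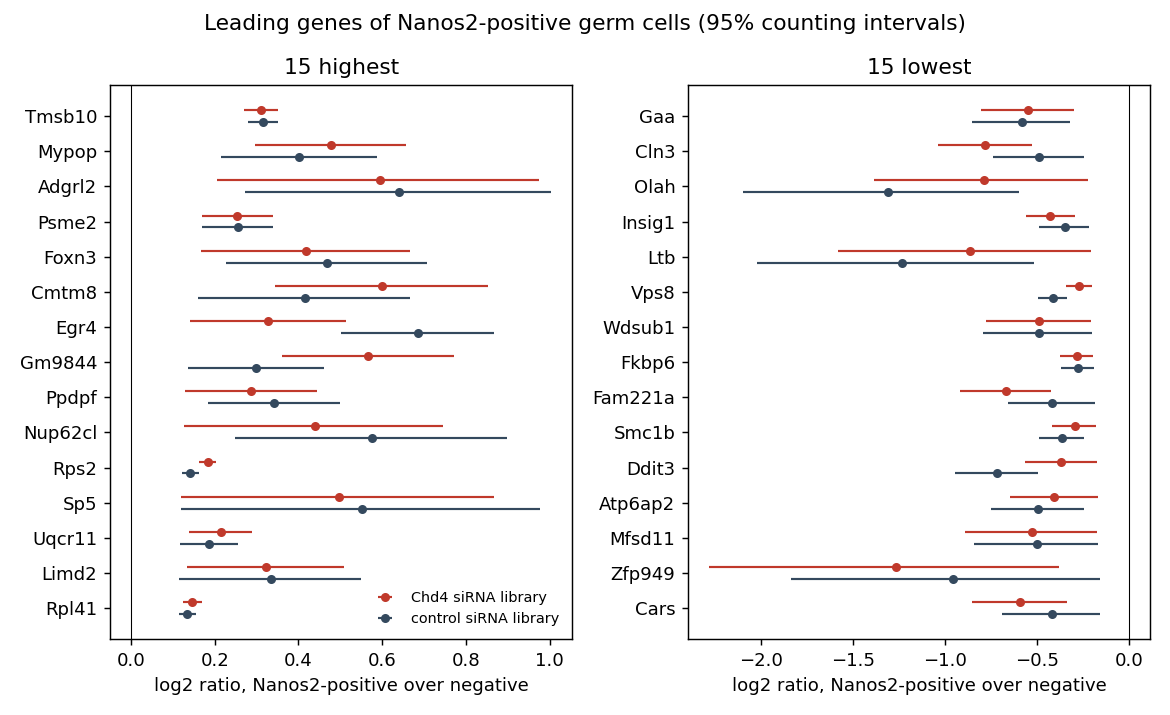
Log2 ratio of summed CPM, Nanos2-positive over negative germ cells (horizontal axis), for the 15 highest and 15 lowest genes by rank, in the Chd4 siRNA library (upper point, red) and the control siRNA library (lower point, blue-grey). Bars are 95% counting intervals; by the way the genes were ranked no interval reaches 0, and Tmsb10 at the top of the left panel has the narrow interval 0.27 to 0.35.

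Cells with more Nanos2 UMIs stood further from the negative cells for part of these genes. Cells with at least 2 Nanos2 UMIs (56 and 51 cells) were compared with those that had 1 (127 and 152 cells). The ratio between these 2 sets was not ranked on, but the UMIs of both were summed for the ranking. The comparison also splits cells on the count that defines the class, so it is a description and no independent evidence. Of the 15 highest genes, 11 had a higher level at 2 or more UMIs than at 1 in both libraries and 0 had a lower one, where 23.8% of all tested genes were higher and 29.1% lower. Of the 15 lowest genes, 7 were lower and 1 was higher in both. For negative cells, cells with 1 and cells with 2 or more, Egr4 had 85.1, 97.8 and 125.9 CPM under Chd4 siRNA and 75.5, 104 and 177 CPM under control siRNA. Tmsb10 had 1716, 1832 and 2744 CPM, and 2242, 2708 and 3057 CPM. Smc1b had 277, 236 and 205 CPM, and 278, 229 and 172 CPM, and Ddit3 had 110.4, 97.8 and 59.7 CPM, and 98.8, 63.5 and 49.3 CPM. En1 had no such order: it had 67.1, 63.2 and 88.6 CPM, and 90.6, 81.4 and 110.6 CPM, with a log2 ratio of 2 or more over 1 of 0.49 (0.09 to 0.87) and 0.44 (0.07 to 0.80). The median depth was 17329.5 UMIs in cells with 2 or more and 16836 UMIs in cells with 1 under Chd4 siRNA, and 16240 and 16554 UMIs under control siRNA, so the class with 2 or more was the deeper one only in the Chd4 siRNA library.

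**Figure D4:**
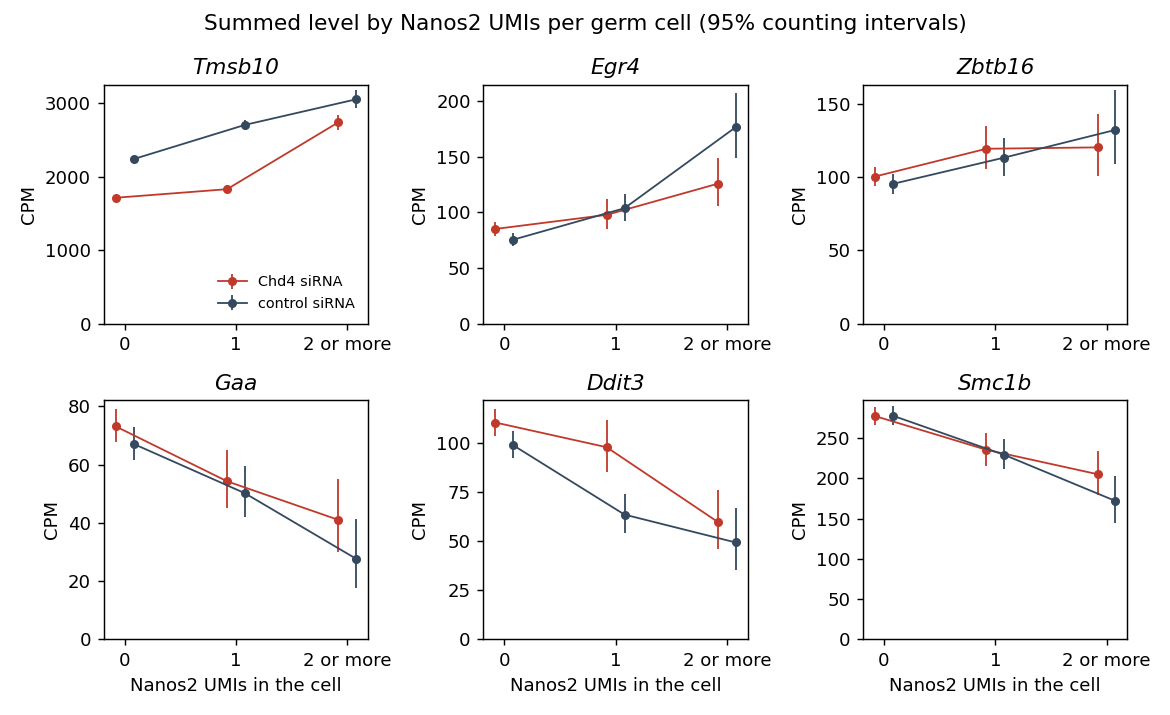
Summed level (CPM, vertical axis, from 0) of 6 genes in germ cells with 0, 1 and 2 or more Nanos2 UMIs (horizontal axis), in the Chd4 siRNA library (red) and the control siRNA library (blue-grey), with exact 95% counting intervals. Tmsb10, Egr4 and Zbtb16 increase and Gaa, Ddit3 and Smc1b decrease at each step in both libraries. The 6 genes are chosen examples, and Zbtb16 is not among the 15 highest. Of the 15 lowest genes only 7 were lower at 2 or more UMIs than at 1 in both libraries. Cln3, not shown, had 54.3 CPM at 1 and 31.7 CPM at 2 or more under Chd4 siRNA, but 49.0 and 58.9 CPM under control siRNA.

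Genes of spermatogonial self-renewal mostly had values near 0. Of 18 tested genes of self-renewal and the GDNF response, 0 were called higher and 1 lower (Bmi1, −0.52 and −0.64), and 4 were above and 2 below 0 in both libraries, with medians of 0.00 and 0.04. For this list and those below, the shares called over all tested genes were 1.18% higher and 2.63% lower. Of all tested genes 22.2% were above and 35.9% below 0 in both libraries. The stem cell repressor gene Id4 had log2 ratios of 0.03 (−0.52 to 0.56) and −0.30 (−0.87 to 0.25), and Ret, the GDNF receptor kinase, had −0.11 (−0.32 to 0.09) and 0.02 (−0.18 to 0.22). Etv5, a GDNF-induced transcription factor, had 0.47 (0.28 to 0.67) under Chd4 siRNA and 0.03 (−0.18 to 0.24) under control siRNA. Gfra1 was not analysed here.

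Zbtb16, which encodes the stem cell factor PLZF, had 120 CPM in positive against 100.4 CPM in negative cells under Chd4 siRNA and 118 against 95.4 CPM under control siRNA, log2 ratios of 0.25 (0.08 to 0.43) and 0.31 (0.13 to 0.48). At equal depth it was detected in 62.4% against 52.5% and in 62.5% against 53.1% of cells, differences of 9.94 points (1.39 to 18.03) and 9.43 points (1.11 to 17.4). It is also 1 of the 5 genes that define a germ cell here, and it did not pass the fold of the call. Of 11 tested regulators of the undifferentiated state, 0 were called higher and 1 lower (Plvap, −0.54 and −0.53).

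Progenitor genes lay above 0 by their median, and further so under control siRNA. Of 9 tested, Egr4 was called higher and 0 lower, and the medians were 0.12 under Chd4 siRNA and 0.48 under control siRNA. Above 0 in both libraries were 4 and below 0 was 1, Sohlh1, against 22.2% and 35.9% of all tested genes. At equal depth Sohlh1 was detected in 50.3% of positive against 55.6% of negative cells under Chd4 siRNA. Under control siRNA the shares were 47.9% and 53.7%, and the intervals of both differences include 0. Nanos3, the paralog of Nanos2, had 44.5 against 40.7 CPM under Chd4 siRNA and 67.0 against 38.7 CPM under control siRNA, log2 ratios of 0.13 (−0.16 to 0.41) and 0.79 (0.54 to 1.04). At equal depth Nanos3 was detected in 30.1% against 27.4% and in 31.8% against 25.6% of cells. These differences were 2.66 points (−4.82 to 10.7) and 6.19 points (−1.23 to 14.0), and both intervals include 0. Neurog3, a progenitor factor, had 12 and 19 UMIs in positive cells, Kit had 5 and 8, and Stra8, the gate to meiosis, had 7 and 8, too few to compare. Of 8 tested genes of differentiating spermatogonia 0 were called, with medians of −0.08 and −0.05.

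Meiotic and piRNA genes lay below 0 as groups by small amounts. Of 17 tested meiotic genes, 15 were below 0 in both libraries and 2 were above (Rec8, 0.39 and 0.21, and Hormad2, 0.13 and 0.05), while 35.9% of all tested genes were below and 22.2% above. Their medians were −0.15 and −0.14, and 0 of them passed the fold in either direction. Besides Smc1b, the synaptonemal complex gene Sycp3 had 189 against 229.6 CPM and 203 against 222 CPM (−0.28 and −0.13), and Taf7l, a germ cell TFIID subunit, had −0.15 in the Chd4 siRNA library and −0.13 in the control library. The summed level of the 20 measured meiotic genes was 1697 CPM in positive against 1920.4 CPM in negative cells under Chd4 siRNA and 1627 against 1837 CPM under control siRNA. Of 16 tested piRNA pathway genes, Exd1 was called higher (0.33 and 0.66), 0 were called lower and 8 were below 0 in both, with medians of −0.16 and −0.17. Mael, of the same pathway and 1 of the genes that define a germ cell here, had 439 against 522 CPM and 401 against 472 CPM (−0.25 and −0.24). Mov10l1, a piRNA helicase gene, had −0.28 and −0.15.

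Sterol synthesis genes lay further below 0 under Chd4 siRNA than under control siRNA, and stress response genes lay below 0 by similar amounts in both libraries. Of 19 tested sterol genes, 1 was called lower (Insig1), 0 higher, and 16 were below 0 in both libraries, with medians of −0.34 under Chd4 siRNA and −0.09 under control siRNA. Of all tested genes 35.9% were below 0 in both libraries. Msmo1, an enzyme that removes methyl groups from sterols, had 157 against 220 CPM under Chd4 siRNA and 167 against 188 CPM under control siRNA (−0.49 and −0.17). Idi1, which isomerises isoprenoid units, had −0.34 and −0.14. Of 15 tested genes of the integrated stress and unfolded protein responses, 2 were called lower, 0 higher and 10 were below 0 in both, with medians of −0.25 and −0.29. The called genes were Ddit3 and Chac1, a glutathione-degrading enzyme gene that had −1.04 and −1.47 on only 11 and 8 UMIs in positive cells. Dnajb9, a chaperone of the endoplasmic reticulum, had 77.2 against 107.0 CPM and 70.8 against 85.7 CPM (−0.47 and −0.28). Of 10 tested p53 target genes 1 was called lower and 5 were below 0 in both, against 35.9% of all tested genes. The stress list summed to 1086 CPM in positive against 1307 CPM in negative germ cells under Chd4 siRNA, where cells outside the germ class had 1184 CPM, and to 1055 against 1214 CPM under control siRNA, where those cells had 955 CPM.

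Genes of the machinery through which NANOS2 acts had medians near 0. Of 21 tested genes of CCR4-NOT and its partners, 1 was called lower, Tob1 (−0.57 and −0.63), which encodes an antiproliferative adaptor of the deadenylase, 0 were called higher, and the medians were −0.09 and −0.03. Below 0 in both libraries were 11 of the 21 and above 0 was 1, against 35.9% and 22.2% of all tested genes. Cnot1, the scaffold that NANOS2 binds, had −0.09 and 0.01, and Dnd1, an RNA-binding partner of NANOS2 in mouse germ cells, had 0.02 and 0.12 but is part of the germ cell rule. Of 19 tested mTORC1 pathway genes 0 were called, with medians of −0.07 and 0.05, and Mtor itself had −0.43 and 0.25. Genes of growth factor feedback had 8 of 12 tested above and 0 below 0 in both libraries, against 22.2% and 35.9% of all tested genes. Among the 8 were Spry4 (0.62 and 0.19) and Dusp6 (0.21 and 0.01). Of the 12 genes 0 were called, and the medians were 0.16 and 0.07. Of 13 NuRD subunit genes 0 were called, and of 22 Polycomb genes 1 was called lower, Bmi1, which is also in the self-renewal list. Of 12 tested interferon response genes 1 was called higher, Psmb8 (0.32 and 0.55), of the immunoproteasome.

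Differences in cell cycle phase were within counting error. At 9000 UMIs, 45.1% of positive and 38.3% of negative cells were assigned to S phase under Chd4 siRNA, a difference of 6.77 points (−1.61 to 15.3), and 40.1% and 38.5% under control siRNA (1.63 points, −6.40 to 9.88). The shares in G2/M were 21.4% and 24.5%, and 27.1% and 29.4%. Of 46 S phase genes and 51 G2/M genes 0 were called, and their medians lay between −0.09 and −0.02. Phase calls are relative scores that moved with the scoring, so the comparison is between classes and not an estimate of cycling.

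Within the positive cells, Chd4 siRNA was compared with control siRNA. Chd4 (chromosome 6, 125095981 to 125130591) had 268 CPM under Chd4 siRNA against 524 CPM under control siRNA in positive cells, a log2 ratio of −0.97 (−1.08 to −0.85). In negative cells it had 248 against 540.3 CPM, a log2 ratio of −1.12 (−1.20 to −1.05), and the difference of these ratios, positive minus negative, was 0.16 (0.02 to 0.29). A Chd4 UMI was found at equal depth in 86.1% of positive cells under Chd4 siRNA against 97.4% under control siRNA. Of 6670 genes with at least 100 UMIs in positive cells, 62 (0.93%) were past 1.5-fold (0.58 on the log2 scale) higher and 112 (1.68%) past 1.5-fold lower under Chd4 siRNA. With cells thinned to 9000 UMIs and the classes kept, 13 of the 62 higher and 53 of the 112 lower genes passed again among 4489 genes tested. In the more numerous negative cells 0.315% and 0.96% of the same genes passed. Of the 62 higher genes, 52 had a ratio above 1 in negative cells and 5 passed the fold there. Of the 112 lower genes, 96 had a ratio below 1 and 46 passed. Both classes come from the same pair of libraries, so this does not stand as a replicate.

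All 12 genes ranked lowest in positive cells also passed the fold in negative cells, with log2 ratios there from −1.46 to −0.76. Yrdc, a tRNA modification enzyme gene, had a log2 ratio of −1.44 in positive and −1.46 in negative cells, and Taf10, a TFIID and SAGA subunit gene, had −1.05 and −1.01. Gatad1, a zinc finger gene, had 34.8 CPM under Chd4 siRNA against 77.4 CPM under control siRNA in positive cells (−1.15). Bod1, of chromosome biorientation, had −1.15 and Ttc19, a nuclear gene that encodes a mitochondrial protein, had −1.05. Pnrc1 had −1.03 and the histone gene Hist1h2ap −1.16. Gm10076, Gm8186, Gm10263 and Rps27rt had −1.35, −1.15, −1.03 and −0.88. Gm8186 and Gm10263 are annotated as processed pseudogenes, and the counts of these 4 may be shared with copies elsewhere.

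In 11 of the 12 genes ranked highest the ratio was smaller in negative than in positive cells, a direction that ranking on the positive cells favours; Reep5 was the exception. Mdk, which encodes the growth factor midkine, had 22.4 CPM under Chd4 siRNA against 8.95 CPM under control siRNA in positive cells, a log2 ratio of 1.32 (0.70 to 1.98), and 0.85 (0.45 to 1.27) in negative cells. Smo, the Hedgehog signal transducer, had 1.01 (0.42 to 1.62) in positive and 0.38 (0.02 to 0.75) in negative cells. Reep5 had 0.52 and 0.59 and Atp9a 0.80 and 0.65. Spp1, osteopontin, had 0.82 and 0.34, Cpeb1, an mRNA polyadenylation regulator of germ cells, had 0.72 and 0.14, and Gdi2, a regulator of Rab proteins, had 0.48 and 0.20. Bud13, Tsen15, Peg3 and Herpud1 had 0.85, 0.69, 0.88 and 0.80 in positive cells and 0.19, 0.26, 0.04 and 0.08 in negative cells.

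**Figure D5:**
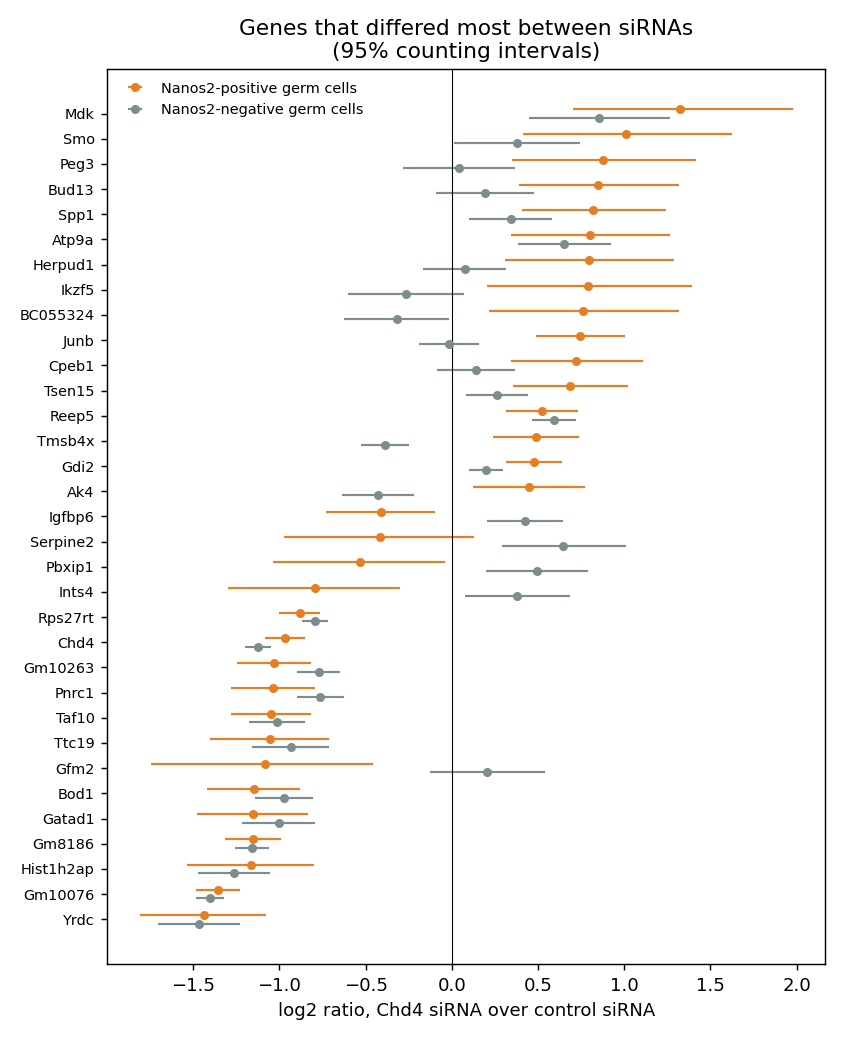
Log2 ratio of summed CPM, Chd4 siRNA over control siRNA (horizontal axis), in Nanos2-positive (upper point, orange) and negative germ cells (lower point, grey) for the genes ranked highest and lowest in positive cells and for those with the largest difference between the classes, with 95% counting intervals. Chd4 lies at −0.97 in positive and −1.12 in negative cells, Junb lies at 0.74 in positive and −0.02 in negative cells, and Tmsb4x, Ak4, Gfm2 and Igfbp6 lie on opposite sides of 0.

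Stem cell and marker genes within the positive cells mostly stayed within the fold. Of 13 self-renewal genes 0 were past 1.5-fold, with medians of −0.04 in positive and 0.01 in negative cells. Over the 6670 genes tested, 0.93% were past 1.5-fold higher and 1.68% lower in positive cells. Etv5 had 100.8 CPM under Chd4 siRNA against 80.6 CPM under control siRNA in positive cells, a log2 ratio of 0.32 (0.09 to 0.56), and −0.12 (−0.28 to 0.04) in negative cells. Nanos3 had 44.5 against 67.0 CPM, −0.59 (−0.90 to −0.29) in positive and 0.07 (−0.15 to 0.30) in negative cells. Of the proposed companions, En1 had −0.31 (−0.56 to −0.06) in positive and −0.43 (−0.59 to −0.28) in negative cells, and Ppfibp2 had −0.06 and −0.17. The developmental factor Foxf1 had −0.79 (−1.19 to −0.41) in positive and −0.48 (−0.69 to −0.26) in negative cells. Tmsb10 had −0.39 in each class. Of 13 tested meiotic genes and of 13 tested piRNA genes 0 were past the fold, and of 9 stress response genes 2 were higher (Asns, 0.71 in positive and 0.25 in negative cells, and Herpud1). Ddit3 had 0.51 (0.24 to 0.77) and 0.16 (0.02 to 0.30).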

How the data were processed

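The data were 2 droplet libraries (10x Genomics v2 chemistry), 1 per group, each of equal cell numbers from 3 pooled biological replicates, per the labels' protocols. Values were whole UMI counts as deposited by the authors, with genes in rows and cells in columns per the file headers. Per the submitters' processing notes, Cell Ranger 2.1.0, Seurat and mm10 were used in unstated roles. Cell calling before deposit and the use of strand are not given in the sources used here.

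Names were at hand for 26893 of the 27998 rows. The rest, with 12.6% of UMIs in the Chd4 siRNA library and 12.1% in the control library, stayed out, so mitochondrial genes and those of chromosome 19 and the end of chromosome 18 were not analysed here. The last cell of each matrix was incomplete and was dropped, and 2 and 0 cells under 1000 UMIs were removed. The kept cells had medians of 17122 and 16344 UMIs among positive germ cells. Doublets (Scrublet, expected rate 1%) were kept.

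UMIs were summed over the cells of a class and divided by the total of named genes to give CPM. Ratios have exact conditional binomial (Clopper-Pearson) 95% intervals, shares Clopper-Pearson intervals, differences of shares Newcombe intervals, and differences of log2 ratios a normal approximation from the 4 counts. All cover counting error only, not the spread between cells or replicates, and no count test was run with 1 library per group. The ratios, their intervals and the fold call between positive and negative cells were tested on simulated sums with counting error only. Those sums hold no spread between cells, and thinning, the germ cell rule, phases and lists were not tested in this way. Phases were called with scanpy 1.11.5 (Python 3.11.15).

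Named genes were the 15 highest and 15 lowest between positive and negative cells by the interval bound nearest to 0 in the weaker library, the 12 highest and 12 lowest for siRNA in positive cells and the 5 and 5 for the difference of siRNA ratios by the same bound, up to 4 members of each of 30 gene lists, the proposed markers, Chd4 and reference genes. Others named describe the range of a list. Some members of the lists are counted but not reported here by name. Members, lists and rules were chosen with earlier results of these data known. Alternatives were depth-weighted, phase-weighted and thinned cells, at least 2 Nanos2 UMIs, other cell and gene filters, doublets removed, per-cell means, and TMM (edgeR 4.0.16) or DESeq2 1.42.0 size factors for scaling only (R 4.3.3). Removing the shared barcode and removing the control cell with 17 Nanos2 UMIs were added after seeing the data.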

Additional observations from a re-analysis of the deposited data

Results flagged for a closer look

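The 5 highest and 5 lowest genes by the difference of the Chd4 siRNA over control siRNA log2 ratio between Nanos2-positive and negative germ cells each had opposite signs in the 2 classes. They are the top of a ranking and not a tally of such genes, and whether the classes differ was not tested, since there is 1 library per group. The difference, positive minus negative, was 0.76 for Junb, an immediate early AP-1 gene, with 99.6 CPM under Chd4 siRNA against 59.5 CPM under control siRNA in positive cells and 64.8 against 65.5 CPM in negative cells, where the ratio was close to 1. In the Chd4 siRNA library 1 positive cell held 12.5% of its UMIs. Tmsb4x, an actin-binding thymosin gene, had a difference of 0.88, with 94.5 against 67.3 CPM in positive cells and 86.3 against 112.7 CPM in negative cells, where 1 control cell held 18.1% of the UMIs. Ak4, an adenylate kinase gene, had a difference of 0.87, with 55.1 against 40.4 CPM in positive cells and 38.1 against 51.3 CPM in negative cells. BC055324 had a difference of 1.08 and Ikzf5, a zinc finger gene, 1.05.

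In the other direction the difference was −1.29 for Gfm2, a mitochondrial translation factor gene, with 9.39 CPM under Chd4 siRNA against 19.9 CPM under control siRNA in positive cells and 19.4 against 16.8 CPM in negative cells. It was −1.17 for Ints4, an Integrator subunit gene, and −1.03 for Pbxip1. For Igfbp6, an IGF-binding protein gene, it was −0.84, with 43.9 against 58.3 CPM in positive cells and 47.3 against 35.2 CPM in negative cells, and for the protease inhibitor gene Serpine2 it was −1.06. Single cells held 9.66% and 11.4% of the Igfbp6 UMIs in the positive cells of the Chd4 siRNA and control libraries. A difference past 1.5-fold was found for 0.75% of the 6670 genes upwards and 1.5% downwards.

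Nanos2 UMIs were also present outside the germ class. In the Chd4 siRNA library there were 6 such UMIs in 5 of 98 cells, above the 3 counts that a count of 0 allows, and in the control library 1 UMI in 1 of 86 cells.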

How the results depend on the processing

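The number of genes past a fixed fold depended on how many counts a gene needed. For genes higher and lower in positive than in negative cells (116 and 258 as reported) and higher and lower under Chd4 siRNA in positive cells (62 and 112), a minimum of 50 UMIs gave 190, 421, 195 and 233, a minimum of 400 gave 24, 52, 1 and 35, and no minimum gave 597, 851, 1482 and 1555. Requiring at least 2 Nanos2 UMIs gave 352, 746, 41 and 73. With cells thinned to 9000 UMIs and Nanos2 called on the thinned counts, 182 genes were higher in positive cells, and 37 were higher and 74 lower under Chd4 siRNA. TMM scaling gave 46 higher and 143 lower under Chd4 siRNA and DESeq2 size factors 46 and 138. Many called genes were not called again in the settings with fewer UMIs or cells. Of the 116, 258, 62 and 112 genes, 24, 47, 1 and 32 were called again with cells thinned and Nanos2 called on the thinned counts, 33, 67, 13 and 53 with thinning alone, and 56, 132, 0 and 29 with at least 2 Nanos2 UMIs; fewer genes were tested in each. Weighting negative cells to the depth of positive cells gave 154 and 226 genes, of which 94 and 183 were also called as reported. The 15 lowest genes kept their sign in both libraries under all alternatives run, and so did the 15 highest except Adgrl2, whose log2 ratio was −0.48 in the Chd4 siRNA library with Nanos2 called on thinned counts. The cause was not tested. A changed minimum of UMIs per gene leaves the ratios as they are, so those settings could not alter a sign. All alternatives also reuse the cells on which the genes were ranked. Scoring each library alone put 45.7% (Chd4 siRNA) and 44.3% (control) of positive cells in G1, 29.5% in S phase (Chd4 siRNA) and 20.3% in G2/M (control), and scoring on all UMIs put 50.7% in S phase and 17.7% in G2/M (control). No paired analysis was possible because each group is 1 library of pooled replicates, and for the same reason no replicate could be left out. Genes under about 100 UMIs in positive cells have intervals too wide to show a difference of 0.32 on the log2 scale.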

Other observations

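A list of 40 lysosomal genes was drawn up after Gaa, Cln3 and Atp6ap2 were seen among the lowest genes, so it is no independent evidence of their direction. Of its 31 tested members 0 were called higher and 5 lower in Nanos2-positive cells, among them Gaa, Cln3, Atp6ap2 and the glucuronidase gene Gusb (−0.50 under Chd4 siRNA and −0.34 under control siRNA). Over all tested genes 1.18% were called higher and 2.63% lower. Below 0 in both libraries were 23 of the 31 (74.2%, against 35.9% of all tested genes) and above 0 were 3, with medians of −0.20 and −0.16. Members below 0 without passing the fold included the cathepsin gene Ctsd (−0.45 and −0.19), the membrane protein gene Lamp2 (−0.17 and −0.24) and the calcium channel gene Mcoln1 (−0.36 and −0.30), while Neu1, a sialidase gene, had 0.19 and 0.32.

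Of 83 cytosolic ribosomal protein genes, also grouped after the values were seen, 53 were above and 16 below 0 in both libraries, with medians of 0.04 and 0.03 and 0 past the fold. Of all tested genes 22.2% were above and 35.9% below 0 in both libraries. Many of these genes have near-identical copies, and their counts are uncertain.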
